A study of Mus musculus with 36 samples.

Results

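The genes described here are 36 genes of DNA break repair and of the checkpoint that halts the cell cycle when DNA is damaged, read out in mouse hippocampus. They were chosen by symbol with earlier results of these data known, the rule itself using no measured value, and all 36 were found among the 37991 genes of the count table. By role they are 12 genes of homologous recombination, 6 of the Fanconi anaemia pathway, 5 of classical end joining, Polq of polymerase theta end joining, 8 of break sensing and checkpoint signalling, 3 of single-strand break repair, and Msh6 of mismatch repair.

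RNA was sequenced from the hippocampus of female CK-p25 mice, which carry an inducible p25 transgene, and of their control littermates (CK), either 2 or 6 weeks after p25 was induced. The labels give an age of 3 months at both times. As background, p25 is a truncated activator of the kinase Cdk5, and in this model its expression is driven in forebrain excitatory neurons, which are then lost. The transgenes that the CK controls carry are not given in the labels. Each of the 4 groups (CK_2wk, CKp25_2wk, CK_6wk, CKp25_6wk) holds 3 libraries, named by group and number as in CK_2wk_4520. Whether they came from separate animals is not stated in the labels. The p-values therefore reflect variation among libraries, part or all of which may be technical. Time since induction, any age difference and any batch shared by one time cannot be told apart.

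A double-strand break can be mended by joining its ends directly or by copying an intact template. In classical end joining the Ku proteins hold the ends and a ligase seals them, and this route works in all phases of the cell cycle, including in neurons that no longer divide. Homologous recombination resects the ends and, with the help of Brca1, Palb2 and Brca2, copies the sister chromatid, so it operates in S and G2 phase. The Fanconi proteins act with it at crosslinked DNA and stalled replication forks. Many genes of the template-copying routes are transcribed mainly in cycling cells, under E2F transcription factors.

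Counts assigned to genes ranged from 5029996 to 6450140 per library, and 14457 genes passed a filter on low counts and were tested. A low share of reads with several alignments set CK_2wk_4520 and CKp25_2wk_4518 apart from the remaining 2-week libraries; without both, 25 of the 36 genes were called at 2 weeks, with Chek2 lost (edgeR adjusted p = 0.0842) and Xrcc2 gained (0.84, edgeR adjusted p = 0.0312), and 17 at 6 weeks. At 6 weeks that share separated the genotypes, 6.86 to 9.52% in CK and 11.5 to 13.9% in CKp25. Markers of hippocampal neurons were present in all 12 libraries, with 4 of 8 lower in CKp25 at 2 weeks and 7 of 8 at 6 weeks. Levels below are CPM, counts scaled to a common library size with TMM factors. Log2 fold changes are from edgeR's quasi-likelihood model with their standard error (SE), and a gene is called at a Benjamini-Hochberg adjusted p under 0.05 over all genes tested.

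Promoter sequences are shown first for 6 members, 4 whose RNA was higher in CKp25 at both times (Brca1, Rad51ap1, Brip1, Mdc1) and 2 of classical end joining whose RNA was called at neither time (Xrcc4, Xrcc6), because E2F letters occur in both sets. RefSeq sequences on build GRCm38.p6, 250 bases before to 50 after each start, were at hand for 28 of the 36 members. Capitals mark searched letters on either strand: an E2F site in the spelling TTCCCGC, in the spelling TTGGCGC, in the spelling TTCGCGC or in the spelling TTGCCGC, or a CCAAT box. The E2F spelling TTGGCGC, read on the other strand and followed by T, would also hold a CCAAT box, which it did in no member. Each stretch reads 5′ to 3′ along the gene's strand. The stretches of Mdc1, Xrcc4 and Xrcc6 end before the start and the others after it. A CCAAT box of Xrcc6 from base 28 and one of Rad51ap1 from base -230 lie outside the stretches shown. Xrcc4 held no CCAAT box. The stretches therefore do not compare CCAAT boxes between the sets.
Brca1, chr11:101551928-101552075, minus strand, from -120 to 28 relative to the start: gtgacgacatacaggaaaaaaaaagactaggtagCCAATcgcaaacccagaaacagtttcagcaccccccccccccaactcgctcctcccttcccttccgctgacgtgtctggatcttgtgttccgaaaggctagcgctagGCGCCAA
Rad51ap1, chr6:126939560-126939707, minus strand, from -120 to 28: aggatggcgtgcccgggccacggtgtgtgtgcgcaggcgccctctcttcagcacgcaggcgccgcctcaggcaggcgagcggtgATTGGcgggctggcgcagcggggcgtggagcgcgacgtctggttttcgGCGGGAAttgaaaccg
Brip1, chr11:86201166-86201313, minus strand, from -120 to 28: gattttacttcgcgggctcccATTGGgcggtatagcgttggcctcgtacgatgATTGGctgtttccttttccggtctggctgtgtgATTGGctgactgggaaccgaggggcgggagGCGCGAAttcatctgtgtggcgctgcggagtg
Mdc1, chr17:35841358-35841497, plus strand, from -140 to -1: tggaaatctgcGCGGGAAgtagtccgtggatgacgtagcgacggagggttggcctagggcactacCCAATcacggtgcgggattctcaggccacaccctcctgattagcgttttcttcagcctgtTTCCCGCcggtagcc
Xrcc4, chr13:90089609-90089728, minus strand, from -120 to -1: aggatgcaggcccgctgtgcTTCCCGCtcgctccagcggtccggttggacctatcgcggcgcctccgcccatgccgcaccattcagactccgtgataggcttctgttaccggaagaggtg
Xrcc6, chr15:82016249-82016368, plus strand, from -120 to -1: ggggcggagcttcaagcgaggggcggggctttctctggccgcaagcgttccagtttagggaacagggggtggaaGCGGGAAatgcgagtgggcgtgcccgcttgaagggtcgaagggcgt

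The E2F letters occurred in 18 of the 28 member promoters (64.3%), against 2054 of the 10633 tested genes with a promoter (19.3%) and 10.9% of all 27025 genes in the table. Homologous recombination and Fanconi genes held them in 9 of 13 promoters (69.2%), and classical end joining genes in 3 of 4 (75%). CCAAT letters occurred in 17 of 28 member promoters (60.7%) against 42.8% of tested genes. For homologous recombination and Fanconi genes the CCAAT share was 10 of 13, and for classical end joining 2 of 4. The letters of the cell cycle homology region, in the spelling TTTGAA or in the spelling TTCGAA, occurred in 3 of 28 member promoters (10.7%) against 15.9% of tested genes. The median GC content was 58.8% over member promoters and 61% over those of tested genes. Of the members called higher at 2 weeks, 14 of 19 promoters held the E2F letters (73.7%), and of those not called 4 of 9 (44.4%). With 4 end joining promoters these shares say little of a difference between roles. A match is a description of the letters and not of binding.

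**Figure D1:**
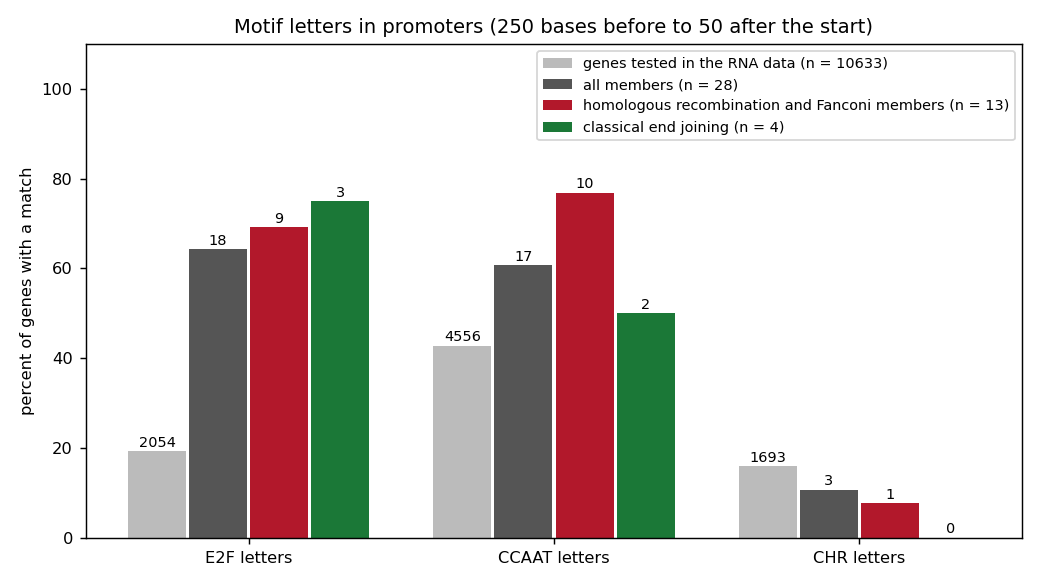
Percent of genes (y axis) whose promoter holds the letters of an E2F site, a CCAAT box or a cell cycle homology region (CHR), with the number of genes with a match above each bar. E2F letters stand in 9 of 13 homologous recombination and Fanconi promoters and 3 of 4 end joining promoters, against 19.3% of tested genes.

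At 2 weeks, 25 of the 36 genes were higher in CKp25 than in CK and none was lower, where 19.6% of all tested genes were called, 11.6% higher and 7.99% lower. At 6 weeks, 16 were higher and 1, Trp53bp1, was lower, where 33.3% of tested genes were called, 18.1% higher and 15.2% lower. The 16 higher at 6 weeks were all among the 25 higher at 2 weeks. The median log2 fold change of the 36 genes was 0.85 at 2 weeks and 0.34 at 6 weeks, beside -0.01 and 0.00 over all genes tested. Every CKp25 library lay above every CK library for 26 of the 36 genes at 2 weeks and 20 at 6 weeks. Over all genes tested that share was 18.4% at 2 weeks and 23.6% at 6 weeks. It is the background for each gene below whose groups are said not to overlap. All 36 passed the filter on low counts, but 11 did so only through the CKp25 libraries. Of these 11, 10 were homologous recombination or Fanconi genes: Brca1, Palb2, Bard1, Rad51ap1, Rad54l, Rad54b, Exo1, Fanca, Fanci and Brip1. The other was Chek2. Because their CKp25 levels let these 11 be tested, the selection favours a difference. Their p-values and the separation of their groups, given below, rest in part on that selection. Of the 25 that reached the filter in CK, 14 were higher at 2 weeks (56%, median 0.44), against 11.6% of all tested genes. At 6 weeks 6 of the 25 were higher (24%) and 1 lower (median 0.17), against 18.1% higher and 15.2% lower of all tested genes.

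The roles differed, but by less among genes that reached the filter in CK, and at 6 weeks by little among these. Of the 18 homologous recombination and Fanconi genes, 15 were higher at 2 weeks (83.3%) and 12 at 6 weeks (66.7%). All tested genes were higher in 11.6% and 18.1%. The median log2 fold changes of the 18 genes were 2.04 and 1.48. Of the 5 classical end joining genes none was called at either time, with medians of 0.08 and 0.16. The medians lay 1.96 apart at 2 weeks and 1.32 apart at 6 weeks, but 10 of the 18 genes passed the filter only through CKp25. Over the other 8, which reached it in CK, 5 were higher at 2 weeks (62.5%, median 0.69) and 2 at 6 weeks (25%, median 0.32). The 6-week share is near the 18.1% of all tested genes. The distance of the 8 genes from the end joining median was 0.61 at 2 weeks and 0.16 at 6 weeks. The tissue is bulk, so more or fewer cells of a type and more or less RNA per cell cannot be told apart.

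**Figure D2:**
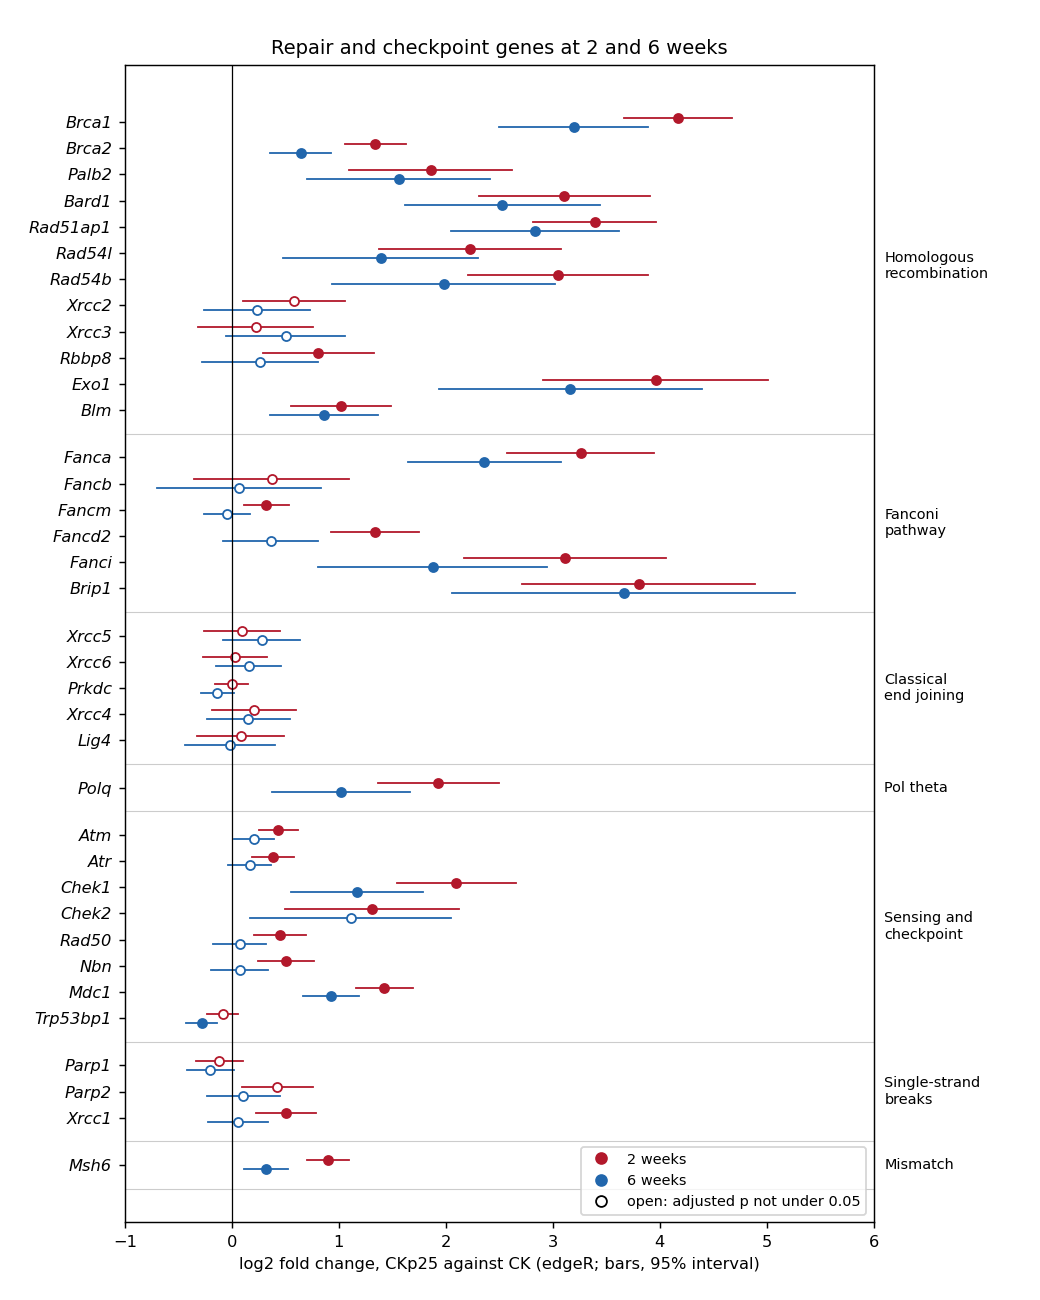
Log2 fold change of CKp25 against CK for each of the 36 genes by role, at 2 weeks (red) and 6 weeks (blue), with 95% intervals from edgeR; filled points have an adjusted p under 0.05. Points of homologous recombination and Fanconi genes reach 4.17, and all 5 classical end joining genes are open at both times.

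Brca1, the ubiquitin ligase subunit that promotes end resection and recruits Palb2, had a log2 fold change above 4 at 2 weeks. Its level was 1.68, 2.66 and 1.63 CPM in the CK libraries at 2 weeks and 31.0, 29.7 and 46.9 CPM in CKp25. At 6 weeks it was 0.814, 1.21 and 0.873 CPM in CK and 10.4, 8.53 and 8.18 CPM in CKp25. Every CKp25 library lay above every CK library, and at 2 weeks CKp25_2wk_4894 was the highest. The log2 fold change was 4.17 (SE 0.24, adjusted p = 2.30e-09, edgeR) at 2 weeks and 3.20 (SE 0.33, adjusted p = 1.59e-06) at 6 weeks. Brca1 passed the filter on low counts only through CKp25, as did Bard1, so their values rest in part on that selection. Bard1, the obligate partner of Brca1, was at 0.503, 1.02 and 1.42 CPM in CK and 5.25, 10.4 and 9.81 CPM in CKp25 at 2 weeks, and its log2 fold change was 3.11 (SE 0.38) at 2 weeks and 2.53 (SE 0.43) at 6 weeks.

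Palb2 links Brca1 to Brca2, a mediator of template copying. Brca2 was at 10.4, 9.41 and 8.53 CPM in CK and 21.7, 26.9 and 23.9 CPM in CKp25 at 2 weeks, without overlap. At 6 weeks its values were 11.6, 11.3 and 11.5 CPM in CK and 20.2, 17.1 and 16.7 CPM in CKp25. Its RNA was present in every CK library well above the filter, and its rise was smaller than that of Brca1: 1.34 (SE 0.13, edgeR adjusted p = 1.11e-06) at 2 weeks and 0.64 (SE 0.14, edgeR adjusted p = 0.00146) at 6 weeks. Palb2 rose by 1.86 (SE 0.36) and 1.56 (SE 0.41) on the log2 scale. With the share of reads with several alignments as a covariate, the Palb2 value at 6 weeks became 0.99 with an edgeR adjusted p of 0.129.

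The accessory factors of strand invasion rose too. Rad51ap1, which stimulates that step, was at 1.68, 0.818 and 1.83 CPM in CK and 14.3, 13 and 19.1 CPM in CKp25 at 2 weeks, a log2 fold change of 3.39 (SE 0.27, edgeR adjusted p = 9.16e-08). At 6 weeks it was at 0.407, 0.607 and 0.873 CPM in CK and 4.20, 5.31 and 4.55 CPM in CKp25, a log2 fold change of 2.84 (SE 0.37). The groups were again fully apart. The motor proteins Rad54l and Rad54b rose by 2.23 (SE 0.40) and 3.05 (SE 0.40) at 2 weeks and by 1.39 (SE 0.43) and 1.98 (SE 0.49) at 6 weeks on the log2 scale. Without CKp25_6wk_3937, which was the highest of its group for Rad54l at 6.00 CPM against 2.42 and 2.55, the 6-week value fell to 0.87 with an edgeR adjusted p of 0.148. The 6-week call on Rad54l was also lost in limma-voom (adjusted p = 0.0621). In edgeR it was lost with the share of reads with several alignments as a covariate (adjusted p = 0.130) and without CK_6wk_4009 (adjusted p = 0.0594).

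The nucleases and helicases of this route were not uniform. Exo1, the exonuclease of long-range resection, was close to absent in CK at 2 weeks, 0, 0.205 and 1.02 CPM, and at 5.10, 6.12 and 7.68 CPM in CKp25. At 6 weeks it was at 0.203, 0.202 and 0.524 CPM in CK and 3.00, 3.06 and 3.09 CPM in CKp25, and its log2 fold changes were 3.96 (SE 0.50) and 3.17 (SE 0.58). With so few CK counts the 2-week size depends on single libraries, and was 3.31 without CK_2wk_4520 and 5.77 without CK_2wk_4893. Blm, the helicase that dissolves double Holliday junctions, rose by 1.02 (SE 0.22) and 0.86 (SE 0.24). Rbbp8 (CtIP), which starts resection with the Mre11 complex, rose at 2 weeks by 0.81 (SE 0.25, edgeR adjusted p = 0.0281), and had a value of 0.27 (95% interval -0.27 to 0.81) at 6 weeks. Without CK_2wk_4891, CK_2wk_4893 or CKp25_2wk_4894, in turn, the 2-week call on Rbbp8 was lost, with edgeR adjusted p-values of 0.134, 0.0765 and 0.153.

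Xrcc2 and Xrcc3, which form complexes that assist recombination, were called at neither time. Xrcc2 had a log2 fold change of 0.58 (95% interval 0.10 to 1.06, edgeR adjusted p = 0.0853) at 2 weeks and 0.24 (-0.26 to 0.74) at 6 weeks. Without CK_2wk_4520, where its 10.2 CPM was the highest of the CK libraries, Xrcc2 was called higher at 2 weeks, with a value of 0.91 and an edgeR adjusted p of 0.0116. Xrcc3 had values of 0.22 (-0.31 to 0.76) and 0.50 (-0.05 to 1.06). At 6 weeks its 3 CKp25 libraries, 5.09 to 7.00 CPM, nevertheless all lay above its 3 CK libraries, 3.44 to 4.89 CPM, as did 23.6% of all tested genes.

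Of the Fanconi genes, 5 of 6 rose at 2 weeks and 3 of 6 at 6 weeks. Fanca, a subunit of the core complex that ubiquitinates Fancd2 and Fanci, was at 0.838, 1.23 and 1.02 CPM in CK and 9.47, 8.53 and 11.8 CPM in CKp25 at 2 weeks. At 6 weeks it was at 1.22, 0.607 and 1.57 CPM in CK and 7.80, 5.96 and 4.36 CPM in CKp25. All CKp25 libraries exceeded all CK libraries, as they did for 18.4% of all tested genes at 2 weeks and 23.6% at 6 weeks. The log2 fold changes of Fanca were 3.26 (SE 0.32) and 2.36 (SE 0.34). Fancb, another core subunit, had values of 0.37 (95% interval -0.35 to 1.1) and 0.07 (-0.70 to 0.84) and was not called. Fancm, the translocase that anchors the core complex to DNA, was the most modest of the called genes at 2 weeks, 0.32 (SE 0.10, edgeR adjusted p = 0.0317), and had a value of -0.04 at 6 weeks; 7 of the 21 alternative settings lost its 2-week call, among them DESeq2 and the leaving out of 5 of the 6 libraries of that time.

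The substrate pair of the core complex, Fancd2 and Fanci, differed from each other at 6 weeks in their calls. Fancd2 was at 4.36, 4.30 and 5.28 CPM in CK and 11.1, 10.9 and 13.2 CPM in CKp25 at 2 weeks, a log2 fold change of 1.34 (SE 0.19, edgeR adjusted p = 8.24e-05). By 6 weeks the CKp25 libraries held 5.20, 7.41 and 5.64 CPM against 4.48, 5.06 and 4.71 CPM in CK, a value of 0.37 (95% interval -0.08 to 0.81) that was not called although the groups did not overlap. Fanci rose by 3.12 (SE 0.45) at 2 weeks and 1.88 (SE 0.51) at 6 weeks, and its 6-week call was lost without CKp25_6wk_4008 (1.40, edgeR adjusted p = 0.0629). The difference between these 2 genes was not tested. Brip1, the helicase that binds Brca1, was at 1.17, 0.409 and 0 CPM in CK and 9.62, 6.68 and 8.17 CPM in CKp25 at 2 weeks, a log2 fold change of 3.80 (SE 0.51), which was 5.18 without CK_2wk_4520 and 3.27 without CK_2wk_4893. At 6 weeks the 3 CK libraries held 3 counts of Brip1 in all and the 3 CKp25 libraries 45, a ratio of 14.0 (95% counting interval 4.49 to 70.4).

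**Figure D3:**
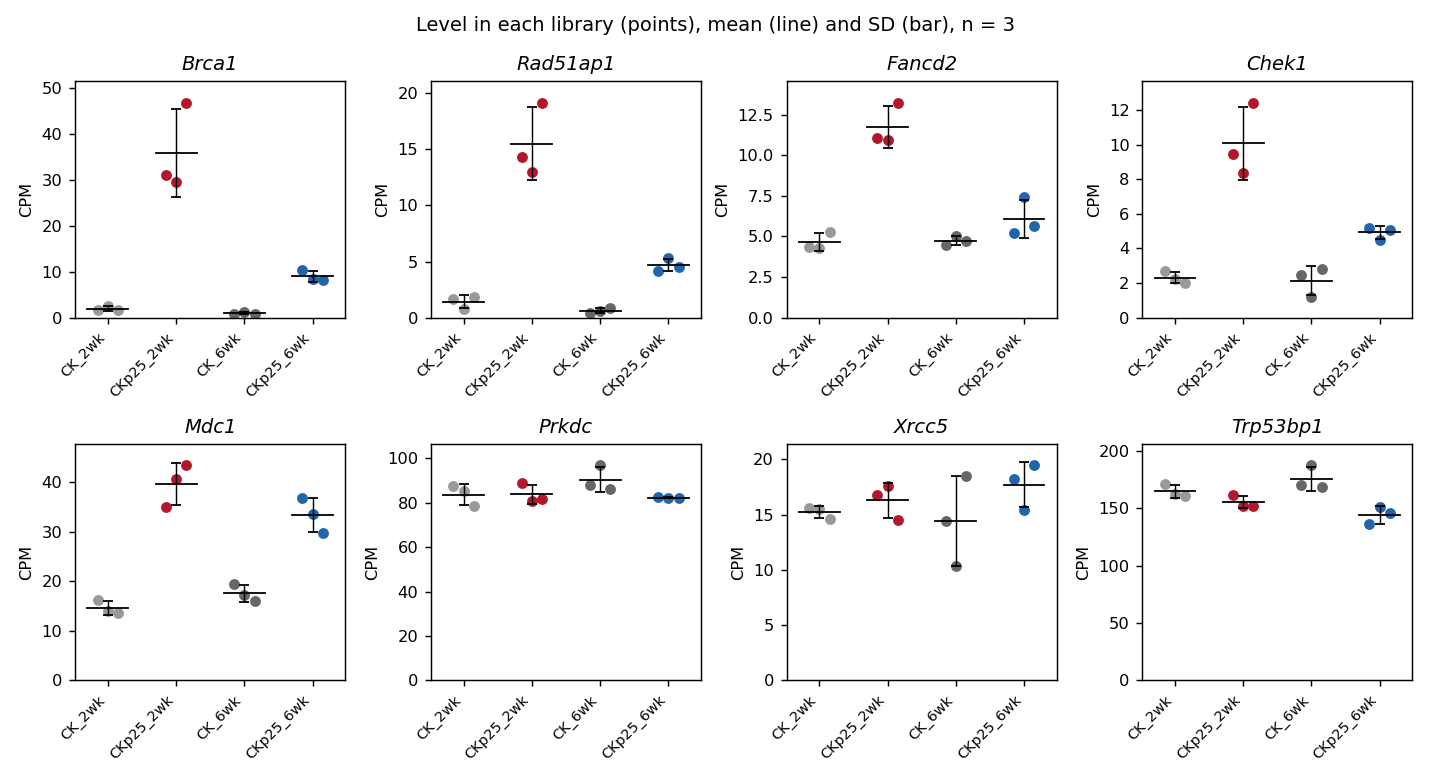
Level in CPM (y axis) of 8 genes in each of the 12 libraries (points), with the group mean (line) and SD (bar), n = 3. For Brca1, Rad51ap1, Chek1 and Mdc1 all CKp25 points lie above the CK points of the same time, whereas the Xrcc5 points overlap at both times. Such a separation held for 18.4% of all tested genes at 2 weeks and 23.6% at 6 weeks.

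Classical end joining genes kept close to one level across the groups. Prkdc, the DNA-dependent protein kinase that joins Ku on the break, was at 87.7, 85.1 and 78.4 CPM in CK and 88.8, 80.7 and 81.9 CPM in CKp25 at 2 weeks. At 6 weeks it was at 88.1, 96.9 and 86.3 CPM in CK and 82.6, 82.1 and 82.2 CPM in CKp25, where the CKp25 libraries all lay below the CK libraries by a small margin. The log2 fold changes were 0.00 (95% interval -0.15 to 0.16) and -0.13 (-0.29 to 0.02), the tightest bounds of the 5 genes.

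The Ku subunits are Xrcc5 (Ku80) and Xrcc6 (Ku70). Xrcc5 was at 15.6, 15.5 and 14.6 CPM in CK and 16.8, 17.6 and 14.5 CPM in CKp25 at 2 weeks, a log2 fold change of 0.09 (95% interval -0.26 to 0.45). At 6 weeks the CK libraries spread from 10.3 to 18.5 CPM and CKp25 from 15.5 to 19.5 CPM, a value of 0.28 (-0.08 to 0.64). Without CK_6wk_4009, the highest of the CK libraries, Xrcc5 was called higher at 6 weeks, 0.51 with an edgeR adjusted p of 0.0322, the one setting in which any of these 5 genes was called. Xrcc6 had values of 0.03 (-0.27 to 0.33) and 0.16 (-0.15 to 0.46).

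The genes of the ligation step were not called either. Xrcc4, the scaffold of the ligase, was at 6.50 to 7.54 CPM in CK and 7.42 to 8.45 CPM in CKp25 at 2 weeks, a log2 fold change of 0.21 (95% interval -0.18 to 0.60), and had a value of 0.16 (-0.23 to 0.54) at 6 weeks. Lig4, the ligase itself, had values of 0.08 (-0.33 to 0.49) and -0.02 (-0.44 to 0.40). None of the 5 genes had an unadjusted p under 0.05 at either time in edgeR, and DESeq2 and limma-voom called none. The intervals do not show that the levels were equal: for Xrcc5 a rise of up to 0.64 and for Xrcc4 one of up to 0.60 on the log2 scale lies within them.

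Polq, whose polymerase joins resected ends through short homologies, did not follow the classical end joining genes. It was at 4.69, 3.68 and 2.03 CPM in CK and 10.1, 13 and 17.5 CPM in CKp25 at 2 weeks, and at 2.64, 2.63 and 3.49 CPM against 6.80, 5.80 and 5.46 CPM at 6 weeks. No library overlapped between genotypes at either time. Its log2 fold change was 1.93 (SE 0.27, edgeR adjusted p = 4.90e-05) at 2 weeks and 1.02 (SE 0.30, edgeR adjusted p = 0.0154) at 6 weeks, and leaving out CK_6wk_3936, CK_6wk_3938 or CKp25_6wk_3937 put the 6-week adjusted p at 0.0541, 0.0555 and 0.0581. With the share of reads with several alignments as a covariate the 6-week edgeR adjusted p was 0.0702.

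Among the genes of break sensing and checkpoint, 7 of 8 rose at 2 weeks, most of them by little. Chek1, the kinase that halts S phase downstream of Atr, was at 2.68, 2.25 and 2.03 CPM in CK and 9.47, 8.34 and 12.4 CPM in CKp25 at 2 weeks. At 6 weeks it was at 2.44, 1.21 and 2.79 CPM in CK and 5.20, 4.51 and 5.09 CPM in CKp25. The groups did not overlap, and the log2 fold changes were 2.10 (SE 0.26, edgeR adjusted p = 1.64e-05) and 1.17 (SE 0.29, edgeR adjusted p = 0.00532). Chek2, the kinase downstream of Atm, rose by 1.31 (SE 0.39, edgeR adjusted p = 0.0234) at 2 weeks, a call that 5 of 21 settings lost, DESeq2 and the leaving out of CK_2wk_4520, CK_2wk_4893 or CKp25_2wk_4894 among them. Its 6-week value was 1.11 (95% interval 0.17 to 2.05, edgeR adjusted p = 0.0654).

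The upstream kinases Atm and Atr had smaller differences. Atm was at 64.7, 53.4 and 55.3 CPM in CK and 78.4, 77.7 and 78.9 CPM in CKp25 at 2 weeks, a log2 fold change of 0.44 (SE 0.09, edgeR adjusted p = 0.00147), and had a value of 0.21 (95% interval 0.02 to 0.39, edgeR adjusted p = 0.0770) at 6 weeks. Atr rose by 0.38 (SE 0.09) at 2 weeks, lost without CK_2wk_4893 (edgeR adjusted p = 0.0555). Rad50 and Nbn, subunits of the complex that first binds the break, rose by 0.45 (SE 0.12) and 0.51 (SE 0.12) at 2 weeks and had values of 0.07 each at 6 weeks. The Rad50 call was lost without CKp25_2wk_4894 (0.36, edgeR adjusted p = 0.0710).

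The chromatin adaptors at the break went different ways. Mdc1, which binds phosphorylated H2AX, was at 16.3, 14.1 and 13.6 CPM in CK and 35.0, 40.6 and 43.5 CPM in CKp25 at 2 weeks, and at 19.5, 17.2 and 16.1 CPM against 36.8, 33.7 and 29.8 CPM at 6 weeks. The groups were apart at both times, with log2 fold changes of 1.43 (SE 0.13) and 0.93 (SE 0.13). Trp53bp1 (53BP1), which limits resection and favours end joining, was at 171, 162 and 161 CPM in CK and 161, 152 and 152 CPM in CKp25 at 2 weeks, a value of -0.08 (95% interval -0.23 to 0.06). At 6 weeks its CK libraries held 170, 187 and 169 CPM and its CKp25 libraries 136, 151 and 146 CPM, and it fell by 0.28 on the log2 scale (SE 0.07, edgeR adjusted p = 0.00438). With the share of reads with several alignments as a covariate that adjusted p was 0.0542, and markers of neurons were also lower in CKp25, at 2589 to 3406 CPM summed over 8 genes against 4040 to 4203 CPM; their part in the result was not tested.

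In single-strand break repair, Xrcc1, the scaffold of that route, was at 16.4, 16.4 and 16.3 CPM in CK and 19.7, 23.4 and 26.8 CPM in CKp25 at 2 weeks. It rose by 0.51 on the log2 scale (SE 0.13, edgeR adjusted p = 0.0111), or 0.40 with an edgeR adjusted p of 0.0705 without CKp25_2wk_4894, and had a value of 0.06 (95% interval -0.22 to 0.34) at 6 weeks. Parp2 had a value of 0.42 (0.09 to 0.75) at 2 weeks without overlap between the groups, but an edgeR adjusted p of 0.0684. Parp1, the main poly(ADP-ribose) polymerase, had values of -0.12 (-0.33 to 0.10) and -0.20 (-0.42 to 0.02). Msh6, which recognises base mismatches, was at 22.6, 22.7 and 22.4 CPM in CK and 39.8, 40.8 and 45.8 CPM in CKp25 at 2 weeks, and at 22.6, 22.7 and 22.5 CPM against 27.6, 27.7 and 29.3 CPM at 6 weeks. Its spread within each group was narrow, and it rose by 0.90 (SE 0.09) and 0.32 (SE 0.10). The 6-week call was lost in DESeq2 (adjusted p = 0.0922) and, in edgeR, with no filter (adjusted p = 0.0741), with the covariate (adjusted p = 0.128) and without CKp25_6wk_4008 (adjusted p = 0.0625).

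Within CKp25, 10 of the 36 genes were lower at 6 than at 2 weeks and none was higher, where 11.7% of tested genes were called, 5.53% lower and 6.12% higher. They were Brca1, Brca2, Rad51ap1 and Rad54b of homologous recombination, Fancd2, Fanci and Brip1 of the Fanconi pathway, Polq, Chek1 and Msh6. Brca1 fell by 1.99 on the log2 scale (SE 0.18, edgeR adjusted p = 9.41e-06), Rad51ap1 by 1.71 (SE 0.22) and Msh6 by 0.58 (SE 0.09). All libraries of CKp25 at 2 weeks lay above all at 6 weeks for 19 of the 36 genes, against 14.4% of tested genes. Polq, of polymerase theta end joining, is among the 10, and none of the 5 classical end joining genes is, with values from -0.17 to 0.12.

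Within CK, none of the 36 genes was called between 6 and 2 weeks in edgeR, DESeq2 or limma-voom, and 0% of tested genes were called in edgeR; 2 members, Brca1 and Rad51ap1, had an unadjusted p under 0.05, both with lower values at 6 weeks. The log2 fold change of CKp25 against CK was lower at 6 than at 2 weeks for 33 of the 36 genes. The median difference was -0.37 over the 36 genes and -0.01 over all genes tested. In the test of that difference 10 of the 36 had an unadjusted p under 0.05 in edgeR. The share of all tested genes at that unadjusted threshold was not computed, here or within CK. After adjustment none of the 36 was called in edgeR, DESeq2 or limma-voom, where 0.553% of tested genes were called in edgeR. Msh6 came nearest, with a difference of -0.58 (95% interval -0.86 to -0.30, edgeR adjusted p = 0.0568). These comparisons share libraries and are not independent.

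By library, the 18 homologous recombination and Fanconi genes had a mean log2(CPM + 0.5) of 1.31 to 1.57 in the 6 CK libraries. Of these 18, 10 passed the filter on low counts only through CKp25, as none of the 5 end joining genes did. The distance between the 2 sets by library therefore rests in part on that selection. In CKp25 the mean of the 18 genes was 3.17, 3.24 and 3.54 in CKp25_2wk_4518, CKp25_2wk_4890 and CKp25_2wk_4894. At 6 weeks it was 2.69, 2.51 and 2.42 in CKp25_6wk_3937, CKp25_6wk_3940 and CKp25_6wk_4008. The mean of the 5 end joining genes stayed between 3.98 and 4.22 in all 12 libraries. CKp25_2wk_4894 was the highest of its group for 8 of the 12 homologous recombination genes and 6 of the 8 sensing genes, and CKp25_6wk_3937 for 8 of the 12 homologous recombination genes at 6 weeks.

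Markers of cycling cells moved with these genes. Their mean log2(CPM + 0.5) was 0.96 to 1.16 in CK. In the CKp25 libraries it was 3.99, 4.34 and 4.76 at 2 weeks and 2.98, 2.73 and 2.55 at 6 weeks. The order of the CKp25 libraries was that of the homologous recombination and Fanconi genes at each time. At 2 weeks that order was not particular to cycling markers. Classical end joining genes had it, at 4.10, 4.19 and 4.20, as did astrocyte and immature neuron markers. Neuron, oligodendrocyte and endothelial markers did not. At 6 weeks end joining genes, astrocyte markers and immature neuron markers did not have it. Microglia markers had the order of the homologous recombination and Fanconi genes in CKp25 too, at 6.00, 6.27 and 6.40 at 2 weeks. At 6 weeks they were at 6.56, 6.23 and 6.23, the last 2 nearly equal. In CK at 2 weeks cycling, microglia and astrocyte markers did not have the order of the homologous recombination and Fanconi genes. Classical end joining genes had it there, as did immature neuron, hippocampal neuron, endothelial, oligodendrocyte precursor and choroid plexus markers. In CK at 6 weeks microglia markers again had that order, as did end joining genes and immature neuron and choroid plexus markers, and cycling markers did not. Of the 14 cycling markers 13 were tested, of which 13 rose at 2 weeks, 11 rose at 6 weeks and 13 fell from 2 to 6 weeks in CKp25. Which of them reached the filter on low counts in CK was not computed. Their CK levels were low, so these counts may rest in part on selection through CKp25. Summed, the 14 were at 45.3 to 52.8 CPM in CK and 365 to 592 CPM in CKp25 at 2 weeks, and at 37.8 to 53.5 and 137 to 182 CPM at 6 weeks, with up to 2 of them at 0 in a CK library and none at 0 in CKp25.

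Microglia markers were also higher, 10 of 10 at both times, with sums of 245 to 267 CPM in CK and 917 to 1206 CPM in CKp25 at 2 weeks and 231 to 265 and 1106 to 1442 CPM at 6 weeks. Unlike the cycling markers they did not have lower sums at 6 weeks. Markers of immature neurons and progenitors summed to 77.2 to 89.0 CPM in CK and 82.8 to 93.3 CPM in CKp25 at 2 weeks, which overlap. At 6 weeks they summed to 75.7 to 82.6 CPM in CK and 78.7 to 82.8 CPM in CKp25. Of the 6 tested, 0 were called at 2 weeks, and at 6 weeks 2 were higher and 1 lower. Oligodendrocyte precursor markers were higher in 1 of 5 at 2 weeks and 2 of 5 at 6 weeks, and none was lower. Lymphocyte markers stayed near 0, at most 4.20 CPM over 10 genes, and none of them passed the filter. Astrocyte markers were higher in 4 of 8 at 2 weeks and 8 of 8 at 6 weeks, and at 6 weeks so were 6 of 6 oligodendrocyte and 5 of 5 endothelial markers. Choroid plexus markers were called at neither time and their sums ranged from 15.3 to 2432 CPM between libraries. The part of any of these cell types in the repair genes' differences was not tested.

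**Figure D4:**
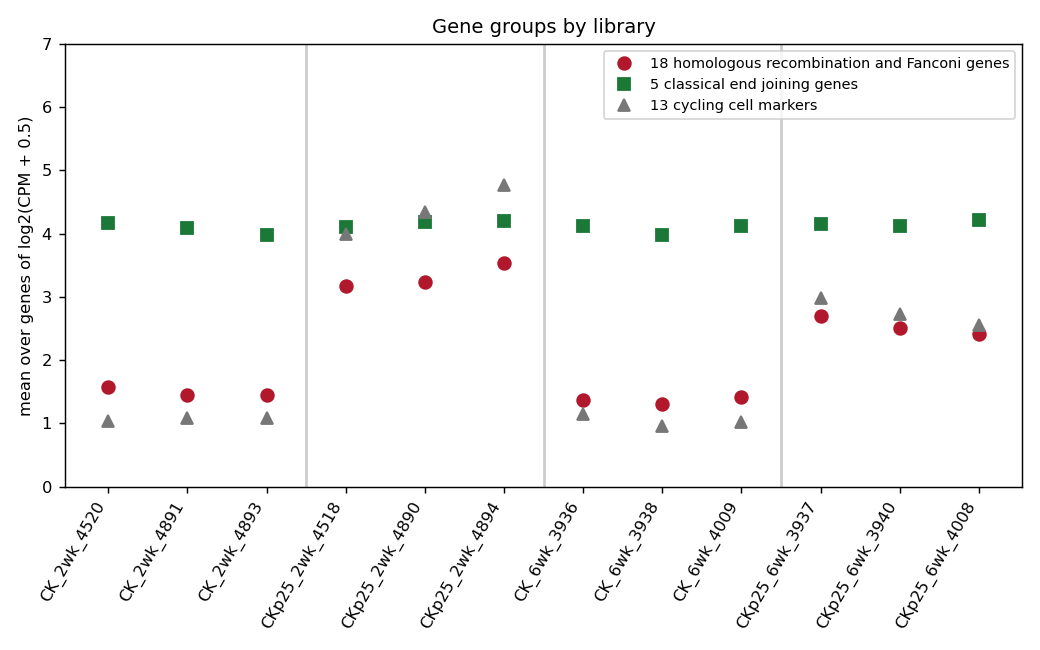
Mean over genes of log2(CPM + 0.5) in each of the 12 libraries (x axis) for 18 homologous recombination and Fanconi genes, 5 classical end joining genes and 13 cycling cell markers. The recombination and cycling points rise together in CKp25 at 2 weeks and are lower at 6 weeks, while the end joining points stay between 3.98 and 4.22. Of the 18 recombination and Fanconi genes, 10 passed the filter on low counts only through CKp25. How many of the cycling markers did so was not computed.

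Other genes of these pathways, from lists chosen by function, were read beside the 36. Over all tested genes 11.6% were called higher and 7.99% lower at 2 weeks, and 18.1% and 15.2% at 6 weeks, and a list's share near these is no result about that list. Which genes of these lists reached the filter on low counts in CK was not computed. Some, such as Rmi2, were near 0 in CK, so the counts of rises may rest in part on selection through CKp25. Of 23 other homologous recombination genes tested, 11 rose at 2 weeks (47.8%) and 9 at 6 weeks (39.1%), with median log2 fold changes of 0.44 and 0.39. Mms22l, which acts in recombination at stalled forks, rose by 2.92 (SE 0.30) at 2 weeks and 1.78 (SE 0.32) at 6 weeks, and the helicase Zgrf1 by 2.24 (SE 0.18) and 1.02 (SE 0.19). Rmi2, of the dissolution complex of Blm, had 2 counts in CK and 51 in CKp25 at 2 weeks, a ratio of 21.9 (95% counting interval 5.76 to 186).

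Of 14 other Fanconi genes, 4 rose at 2 weeks (28.6%). At 6 weeks 3 rose (21.4%) and 1 fell (7.14%), where the share that rose is near the background of that time. Ube2t, the conjugating enzyme of the core complex, rose by 2.62 (SE 0.56) at 2 weeks, and at 6 weeks had 3 counts in CK and 29 in CKp25, a ratio of 9.02 (95% counting interval 2.79 to 46.3). Usp1, which removes ubiquitin from Fancd2, rose by 0.97 (SE 0.11) at 2 weeks and had a value of 0.20 (SE 0.11) at 6 weeks. Fancg rose by 0.69 (SE 0.19) and 0.64 (SE 0.19), and the ubiquitin ligase Rfwd3 rose by 0.39 (SE 0.12) at 2 weeks. The Fancg call was lost in 3 settings at each time, at 2 weeks in DESeq2 and without CK_2wk_4893 or CKp25_2wk_4894 and at 6 weeks in DESeq2 and without CK_6wk_4009 or CKp25_6wk_3937. The Rfwd3 call was lost in 5 of 21, in DESeq2 and without CK_2wk_4891, CK_2wk_4893, CKp25_2wk_4518 or CKp25_2wk_4890. The nuclease subunit Ercc4 fell by 0.35 (SE 0.13, edgeR adjusted p = 0.0481) at 6 weeks, a call that 14 of 21 alternative settings lost.

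Of 14 other end joining genes, 2 rose at each time (14.3%) and none fell, shares of rises that do not stand out from the background. Tdp2, which frees ends blocked by topoisomerase II, rose by 0.85 (SE 0.16) at 2 weeks and Rif1, a partner of Trp53bp1, by 0.50 (SE 0.09). At 6 weeks the 2 that rose were other genes, Paxx and Mad2l2. The list's median was 0.13 at 2 weeks and 0.18 at 6 weeks.

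Of 21 other sensing and checkpoint genes, 7 rose at 2 weeks (33.3%). At 6 weeks 4 rose (19.0%) and 1 fell (4.76%), where the share that rose is near the background of that time. Clspn (claspin), the adaptor through which Atr activates Chek1, was at 1.17, 1.02 and 1.02 CPM in CK and 14.7, 16.7 and 20.3 CPM in CKp25 at 2 weeks, and rose by 3.97 (SE 0.29) and 2.11 (SE 0.29). Timeless, of the fork protection complex, rose by 2.88 (SE 0.21) and 1.79 (SE 0.22), and Topbp1, an activator of Atr, by 1.31 (SE 0.13) and 0.72 (SE 0.14). Cdc25a, the phosphatase that Chek1 restrains, rose by 1.45 (SE 0.21) at 2 weeks, and Brcc3, a deubiquitinase, fell by 0.27 (SE 0.09) at 6 weeks, a call that 9 of 21 settings lost.

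Of 14 other mismatch and base excision repair genes, 3 rose at 2 weeks, and at 6 weeks 3 rose and 1 fell, shares of 21.4% and 7.14% that do not stand out from the background of that time. The replicative ligase Lig1 rose by 2.26 (SE 0.26) and 1.34 (SE 0.27), the flap nuclease Fen1 by 1.42 (SE 0.18) and 0.88 (SE 0.19), and the uracil glycosylase Ung by 1.90 (SE 0.42) and 2.61 (SE 0.53). Apex1, the endonuclease at abasic sites, fell by 0.41 (SE 0.14, edgeR adjusted p = 0.0325) at 6 weeks, a call that 6 of 21 settings lost.

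In RefSeq the spans of 11 of the 36 genes overlap another protein-coding gene: Atr, Fanca, Fancb, Fancd2, Fanci, Msh6, Rad54b, Rad54l, Trp53bp1, Xrcc3 and Xrcc6. Whether the counting used strand is not stated in the labels, so reads of a gene and of a partner on the other strand cannot be told apart for these.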

How the data were processed

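The RNA values are whole-number read counts per Ensembl gene, deposited by the authors as 1 table with 12 columns. The submitters' processing notes name HTSeq 0.6.1, Bowtie, Picard and MACS2, and the builds mm9 and NCBIM37. The labels' protocols describe a stranded total RNA kit with ribosomal RNA removed. Entries naming no gene, 60.0 to 63.6% of a library's total, stayed out of library sizes and tests. Counts were fitted in R 4.3.3 with edgeR 4.0.16 (filterByExpr, minimum count 10, TMM, quasi-likelihood, 4 group means over 12 libraries), and checked on simulated data. DESeq2 1.42.0, limma-voom 3.58.1, other scalings and filters, a covariate and leaving out each library were alternatives. List means used log2(CPM + 0.5). Of 94 other pathway genes, 92 matched and 86 were tested; those named are, in each list, up to 4 of those called at 2 weeks, by size, plus any called lower (1 gene that the rule names is not reported here), and Paxx and Mad2l2, named after their values were seen. Members and lists were chosen with earlier results of these data known. Counting intervals cover counting error only. ChIP peak lists are not used here.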

Additional observations from a re-analysis of the deposited data

Results flagged for a closer look

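Usp1, the deubiquitinase of Fancd2, is listed because its genotype effect differed between the times in a test of that difference. It was at 24.5, 22.7 and 26.0 CPM in CK and 44.0, 47.8 and 51.5 CPM in CKp25 at 2 weeks, and at 21.6, 24.5 and 27.1 CPM against 27, 30.4 and 26.7 CPM at 6 weeks. The effect was lower at 6 weeks by -0.77 on the log2 scale (edgeR adjusted p = 0.0352), where 0.18% of tested genes were called in that direction. Over 20 alternatives it ranged from -0.85 to -0.68, with adjusted p-values from 0.00139 to 0.0926. All 9 alternatives that lost the call left out 1 library: CK_2wk_4520, CK_2wk_4891, CK_2wk_4893, CKp25_2wk_4890, CKp25_2wk_4894, CK_6wk_3938, CK_6wk_4009, CKp25_6wk_3937 or CKp25_6wk_4008.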

How the results depend on the processing

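Over the alternatives run, the number of members called was 20 to 27 at 2 weeks, 13 to 19 at 6 weeks and 8 to 13 between times in CKp25. The test of the genotype effect between times called 1 member, Msh6, in place of 0 with library totals only, with no filter, and with the share of reads with several alignments as a covariate. Library totals only moved the median of all genes at 2 weeks to 0.10. End joining genes called at 6 weeks ranged from 0 to 1 when 1 library was left out, and adding Polq and Trp53bp1 to them gave 1 called higher at each time. The distance between the medians of the recombination and end joining genes ranged from 1.72 to 2.16 at 2 weeks and from 1.07 to 1.53 at 6 weeks when 1 library was left out, and was 1.11 at 6 weeks with the covariate; the cause was not tested. Over only the 8 recombination genes that reach the filter in CK, chosen after seeing the data, it was 0.61 at 2 weeks and 0.16 at 6 weeks. Signs turned only for values that were not called. At 2 weeks Prkdc was -0.0080 with no filter, -0.0046 with at least 1 CPM in at least 3 libraries, -0.0082 without both libraries that stand apart, -0.013 with the covariate and between -0.050 and 0.034 when 1 library was left out. With 1 library left out, Xrcc6 ranged from -0.11 to 0.13 and Lig4 from -0.047 to 0.27. With library totals only, Trp53bp1 was 0.029 and Apex1 0.026 at 2 weeks, and Lig4 0.020 at 6 weeks. At 6 weeks the covariate gave -0.032 for Xrcc6, -0.020 for Parp2, -0.029 for Xrcc1 and -0.097 for Tdp2, and limma-voom gave -0.0033 for Fancb. With 1 library left out, the 6-week value ranged from -0.22 to 0.30 for Fancb, -0.080 to 0.0028 for Fancm, -0.027 to 0.26 for Xrcc4, -0.13 to 0.070 for Lig4, -0.043 to 0.22 for Parp2 and -0.029 to 0.12 for Xrcc1. With a library left out, its group is 2 libraries in a fit that pools the spread. No paired analysis was possible because the library numbers are not shared between groups.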
